A study of Saccharomyces cerevisiae with 4 samples.

Results

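The 10 genes described here encode mitochondrial carriers for adenine nucleotides, phosphate and small di- and tricarboxylates in the budding yeast Saccharomyces cerevisiae. They were AAC1 (YMR056C), PET9 (YBL030C), AAC3 (YBR085W), MIR1 (YJR077C), PIC2 (YER053C), DIC1 (YLR348C), OAC1 (YKL120W), ODC1 (YPL134C), ODC2 (YOR222W) and CTP1 (YBR291C). They were chosen by name and function from the 6256 genes on the array. All 10 were measured and all 10 entered the test of 5343 genes.

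Mitochondrial carriers are a family of related proteins of the inner mitochondrial membrane. Each moves 1 or a few metabolites between the cytosol and the matrix, often in exchange for others. Respiring mitochondria import ADP and phosphate for the ATP synthase and send ATP out, so the ADP/ATP carriers and the phosphate carrier belong to the machinery of oxidative phosphorylation. The dicarboxylate, oxaloacetate, oxodicarboxylate and citrate carriers link the citrate cycle to reactions outside the matrix, among them gluconeogenesis and the synthesis of amino acids. On glucose yeast ferments and represses much of its respiratory machinery, whereas glycerol can be used only through respiration.

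Transcript levels were compared between a parental strain labelled BY4741, a laboratory haploid, and DampERG12 mutants. A DAmP allele lowers the amount of a transcript by disrupting the gene's 3' end. The product of ERG12 is mevalonate kinase, needed for the synthesis of sterols and other isoprenoids, and per the labels the mutants had 10% of the parental enzyme activity. Both strains were grown on glucose in synthetic medium and then moved to the same medium with glucose or with glycerol, at 20 g/L each, which gave 4 conditions. The labels differ on the step before RNA was taken: 1 h in the new medium, growth there from an optical density of 0.1 to 0.5, or 1 h in rich medium at pH 2.5. Which applied was not tested. Whether the mutants were 1 clone or several is not given in the sources used here.

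RNA of 2 conditions was hybridised together on each 2-colour array, with Cy5 on the test RNA and Cy3 on the reference RNA. Each strain's glycerol RNA was set against its own glucose RNA, and mutant RNA was set against parental RNA on either carbon source, with 2 biological replicate arrays for each of these 4 comparisons. The 8 arrays filled 2 rows of 1 slide, 1 comparison to a column. Slide column and comparison therefore cannot be told apart, and without a dye swap a dye bias of a probe is part of its ratio. Whether arrays of a slide row share RNA extracts is not given in the sources used here. Median channel signals were between 133 and 743 scanner units, and 4917 to 5499 genes per channel were well above background. ERG12 itself was above background in 5 of 8 parental and 1 of 8 mutant channels and was not tested. Of the markers of a-type haploids, which BY4741 is, MFA1 was above background in 13 of 16 channels, STE2 in 6, MFA2 in 2 and BAR1 in 0. The alpha-type markers STE3, MF(ALPHA)1 and MF(ALPHA)2 were above it in 4, 3 and 0 channels. The mating type was thus not settled by these probes.

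Ratios are log2 values after loess normalization, which sets the average of genes with similar signal on each array to 0. That average is called the average gene below. When arrays were centred on spike-in RNA instead, the median of all genes moved from -0.01 to -0.92 for glycerol over glucose in the parental strain, from 0.02 to 0.19 in the mutant, and from 0.01 to 0.82 for the strains in glycerol. In the parental strain 9.29% of calls were then higher, against 50.7% here. Every direction below is relative to the average gene, and called values that turn or lose their call under this centring are named.

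Among these 10 carriers the move to glycerol went with rises in some and falls in others. In the parental strain 8 of 10 were called at an adjusted p under 0.05, beside 62% of all tested genes. Of these, 5 rose (AAC1, PET9, MIR1, DIC1 and ODC1, beside 31.4% of all genes) and 3 fell (OAC1, ODC2 and CTP1, beside 30.5%). In the mutant 7 of 10 were called, beside 46.6% of all genes. AAC1, PET9, MIR1 and ODC1 rose again, 4 of 10 beside 24.7%, and OAC1, ODC2 and CTP1 fell again, 3 of 10 beside 21.9%. The median ratio of the 10 was 0.25 in the parental strain and 0.13 in the mutant, beside medians of -0.01 and 0.02 over all genes. The background itself was large, shares of 10 genes are coarse, and the carriers moved in both directions. In RNA of whole cultures, a change in every cell and a change in a share of the cells cannot be told apart. Probes of these genes were reliable within an array: both spots of a gene differed by at most 0.22, and 0 spots were saturated or marked as outliers. AAC3 was above background on 13 of 16 channels and the other 9 genes on all 16.

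**Figure D1:**
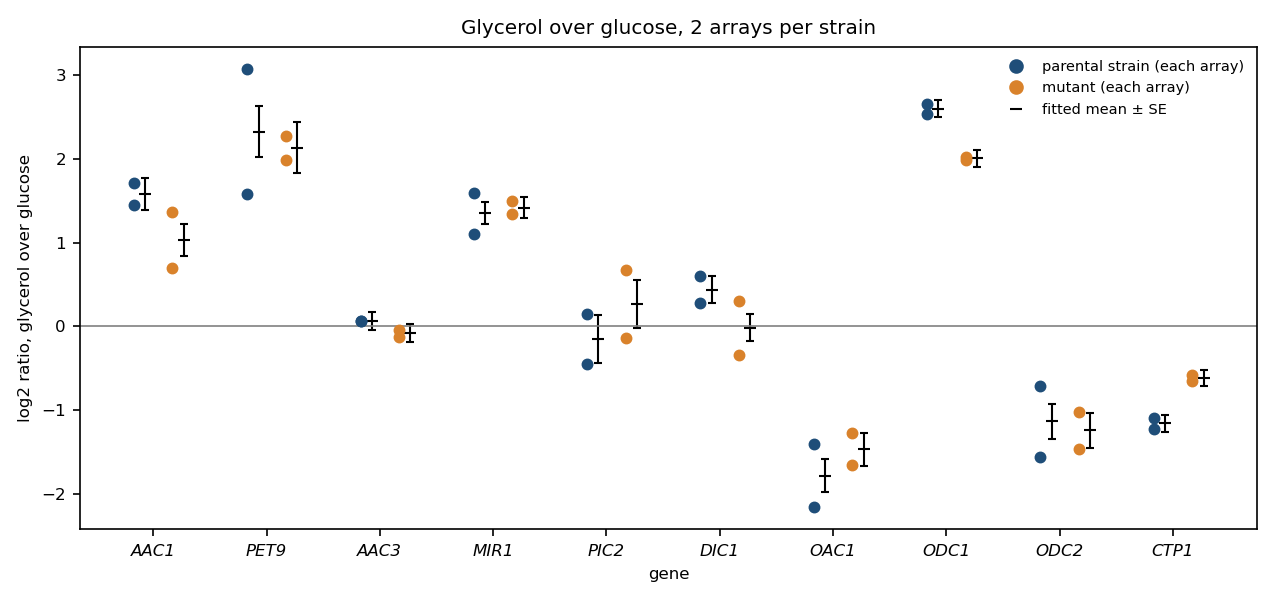
Log2 ratio of glycerol over glucose for the 10 carrier genes. Points are single arrays, 2 in the parental strain (blue) and 2 in the mutant (orange), and black marks are the fitted mean ± SE. By fitted mean ODC1 and PET9 lie highest in both strains, OAC1, ODC2 and CTP1 lie below 0 on every array, and AAC3 lies near 0 in both strains.

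The ADP/ATP carriers exchange cytosolic ADP for ATP made in the matrix. PET9, also called AAC2, encodes the main isoform of respiring cells, AAC1 a minor aerobic isoform and AAC3 an isoform known from cells without oxygen. The PET9 ratio was 3.08 and 1.58 on the parental arrays and 1.99 and 2.27 on the mutant arrays. All 4 arrays were well above 0, but the parental arrays differed more from each other than the strains did. PET9 rose 5.02-fold in the parental strain (2.33 ± 0.30, log2 ± SE, n = 2 arrays, limma adjusted p = 0.000301) and 4.39-fold in the mutant (2.13 ± 0.30, adjusted p = 0.000838). By absolute size it ranked 189th of 5343 genes in the parental strain and 130th in the mutant.

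For AAC1 the ratio was 1.45 and 1.71 on the parental arrays and 0.70 and 1.37 on the mutant arrays. The strains' arrays did not overlap, although the mutant arrays were far apart. AAC1 rose 2.996-fold in the parental strain (1.58 ± 0.19, adjusted p = 0.000208) and 2.05-fold in the mutant (1.03 ± 0.19, adjusted p = 0.00311). With median centring the parental and mutant values were 1.12 and 1.13, and with spike-in centring 0.67 and 1.20, all called. The order of the strains was therefore not settled. Without the second mutant array the mutant value was 0.70 and missed the threshold (adjusted p = 0.0519). The PET9 ratio exceeded that of AAC1 by 0.90 to 1.30 on the mutant arrays, while on the parental arrays the difference ran from -0.13 to 1.62.

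AAC3 showed no change that passed the test. Its ratio was 0.07 on both parental arrays and -0.04 and -0.12 on the mutant arrays, with fitted means of 0.07 ± 0.11 (adjusted p = 0.605) and -0.08 ± 0.11 (adjusted p = 0.55). The probe was dim, and the offset added to all signals pulls the ratios of dim probes towards 0. In parental glycerol cells it was above background on 2 of 4 channels and in mutant glucose cells on 3 of 4. Agilent's own processed ratios of AAC3, which carry no such offset, were 0.33 and 0.50 on the parental arrays and 0.78 and -0.17 on the mutant arrays. With median centring in place of loess the parental value of AAC3 was 0.57 and called (adjusted p = 0.0329), and with spike-in centring it was -0.85 and called (adjusted p = 0.00433). The direction of AAC3 was therefore not settled. PET9 stood above AAC3 by 1.51 to 3.01 on the parental arrays and by 2.03 to 2.40 on the mutant arrays.

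MIR1 encodes the main mitochondrial phosphate carrier, which brings in the phosphate that the ATP synthase uses, and PIC2 a related carrier that also moves copper. The MIR1 ratio was 1.60 and 1.105 on the parental arrays and 1.497 and 1.34 on the mutant arrays. The mutant values lay inside the parental range. MIR1 rose 2.55-fold in the parental strain (1.35 ± 0.13, adjusted p = 5.77e-05) and 2.67-fold in the mutant (1.42 ± 0.13, adjusted p = 9.66e-05). The parental value was 0.75 with median centring, where it was still called, and 0.44 with spike-in centring, where it was not (adjusted p = 0.144).

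PIC2 did not pass the test in either strain. Its ratio was 0.15 and -0.45 on the parental arrays and -0.14 and 0.68 on the mutant arrays, so that each strain had 1 array above and 1 below 0. The fitted means were -0.15 ± 0.29 (adjusted p = 0.671) and 0.27 ± 0.29 (adjusted p = 0.479). Spike-in centring moved the parental value to -1.06, which was called (adjusted p = 0.000335). MIR1 stood above PIC2 on all 4 arrays, by 1.45 to 1.55 in the parental strain and by 0.66 to 1.64 in the mutant.

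**Figure D2:**
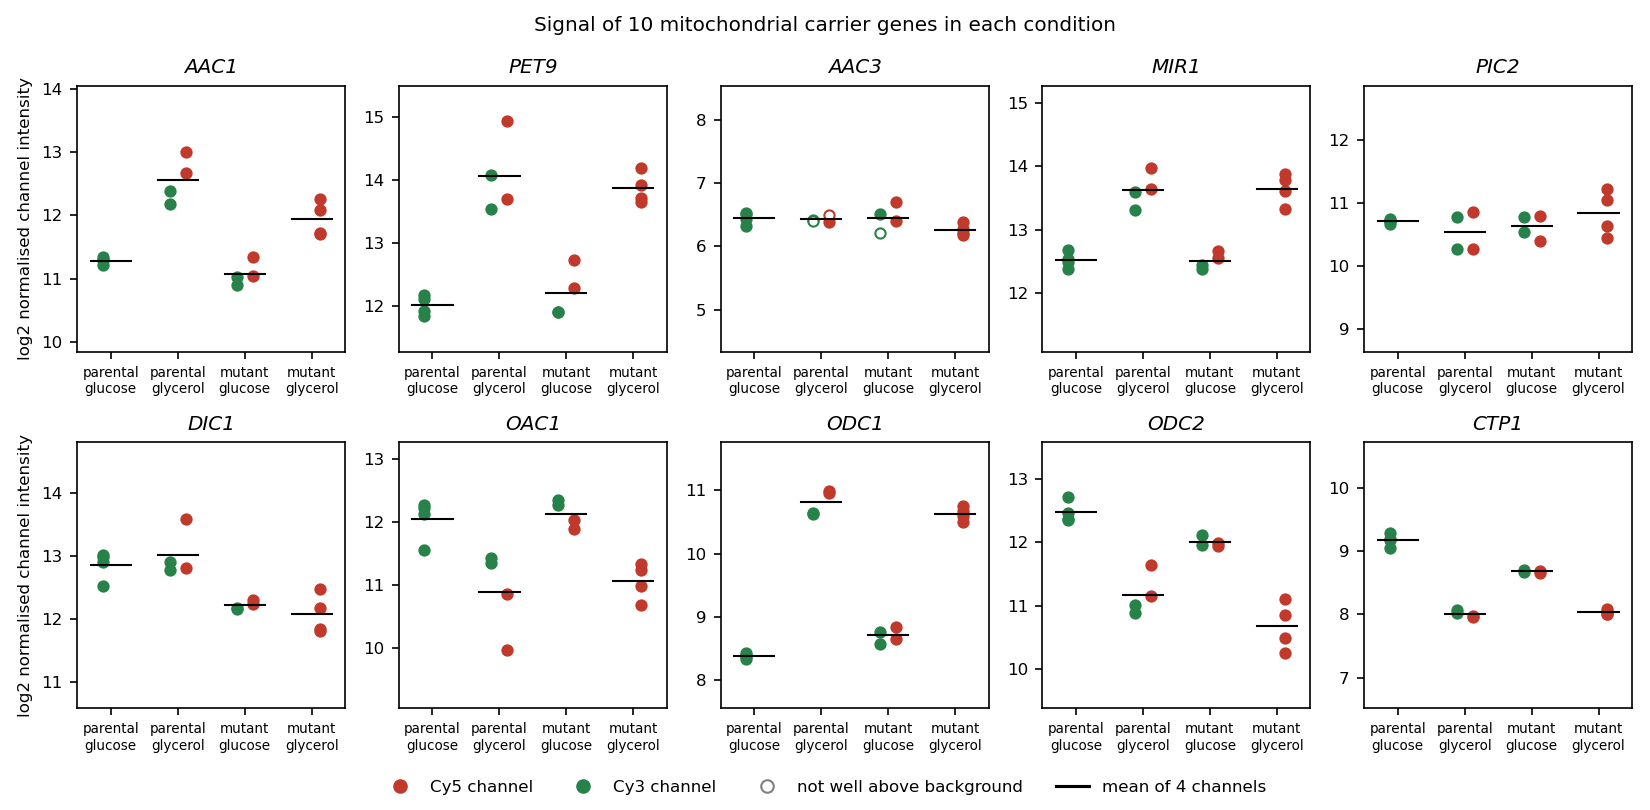
Log2 normalised channel intensity of each carrier gene in the 4 conditions, with 1 point per channel (4 per condition), red for Cy5, green for Cy3 and open where the probe was not well above background. The line is the mean of 4 channels, all panels span the same number of log2 units, and heights are not comparable between genes. Glycerol channels of ODC1, PET9, MIR1 and AAC1 lie above all their glucose channels, and those of ODC2, OAC1 and CTP1 lie below.

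Normalised channel levels show where each gene stood in all 4 conditions, with 4 channels per condition. They are log2 scanner units, comparable between conditions of 1 probe but not between genes. Parental glucose RNA was always in Cy3 and mutant glycerol RNA always in Cy5. The median level of PET9 was 12.03 in parental glucose (range 11.85 to 12.18) and 12.10 in mutant glucose (11.92 to 12.73). In glycerol it was 13.89 in the parental strain (13.54 to 14.93) and 13.81 in the mutant (13.65 to 14.19). Glycerol and glucose did not overlap, while the strains overlapped on each carbon source.

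AAC1 had the order parental glycerol 12.53 (12.18 to 13.00), mutant glycerol 11.91 (11.71 to 12.26), parental glucose 11.29 (11.22 to 11.34) and mutant glucose 11.04 (10.89 to 11.34). Both neighbouring pairs on 1 carbon source overlapped. AAC3 lay between 6.18 and 6.70 in every condition, and no condition stood clear of the others. MIR1 stood at 13.70 in mutant glycerol (13.33 to 13.87) and 13.62 in parental glycerol (13.31 to 13.97), which could not be ordered. Its glucose medians were 12.51 in the parental strain (12.37 to 12.68) and 12.49 in the mutant (12.38 to 12.67). PIC2 stayed between 10.27 and 11.22, and its 4 conditions overlapped.

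DIC1 encodes the dicarboxylate carrier, which exchanges malate or succinate for phosphate and supplies the citrate cycle with dicarboxylates. Its glycerol ratio was 0.28 and 0.60 on the parental arrays and -0.34 and 0.31 on the mutant arrays. In the parental strain DIC1 rose 1.36-fold (0.44 ± 0.16, adjusted p = 0.0445). In the mutant it was at -0.02 ± 0.16 (adjusted p = 0.946), and the difference between the strains' responses did not pass (-0.46 ± 0.23, adjusted p = 0.294). The parental call held in 7 of 18 alternative settings. Median centring turned it to -0.13 and spike-in centring to -0.47, neither of them called, and the authors' deposited table has 0.05. The median level of DIC1 was 12.94 in parental glucose (12.53 to 13.01) and 12.86 in parental glycerol (12.78 to 13.57). In the mutant it was 12.20 in glucose (12.16 to 12.30) and 12.01 in glycerol (11.82 to 12.48). Each strain's carbon sources overlapped, and both mutant ranges lay below both parental ones.

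OAC1 encodes a carrier of oxaloacetate and sulfate that also exports isopropylmalate, an intermediate of leucine synthesis. Its ratio was -1.41 and -2.16 on the parental arrays and -1.28 and -1.66 on the mutant arrays, all well below 0. OAC1 fell in the parental strain to -1.79 ± 0.20 (3.45-fold lower, adjusted p = 0.00012) and in the mutant to -1.47 ± 0.20 (2.77-fold lower, adjusted p = 0.000637). By fitted mean this was the largest fall among the 10 carriers in both strains, although on the first array of each strain ODC2 was lower, at -1.56 and -1.47. Its median level was 12.17 in parental glucose (11.55 to 12.27) and 12.14 in mutant glucose (11.88 to 12.35). In glycerol it was 11.10 in the parental strain (9.97 to 11.42) and 11.11 in the mutant (10.69 to 11.33), so the strains overlapped on both carbon sources.

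ODC1 and ODC2 encode a pair of related carriers of 2-oxoglutarate and 2-oxoadipate. The latter is an intermediate of lysine synthesis. Their transcripts moved in opposite directions. The ODC1 ratio was 2.54 and 2.66 on the parental arrays and 1.99 and 2.02 on the mutant arrays. Replicates of ODC1 were close, and the strains did not overlap. ODC1 rose 6.07-fold in the parental strain (2.60 ± 0.10, adjusted p = 9.75e-07) and 4.02-fold in the mutant (2.01 ± 0.10, adjusted p = 4.57e-06).

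For ODC2 the ratio was -1.56 and -0.71 on the parental arrays and -1.47 and -1.02 on the mutant arrays. Every array was below 0, and the strains overlapped. ODC2 fell to -1.14 ± 0.21 in the parental strain (2.20-fold lower, adjusted p = 0.00186) and to -1.24 ± 0.21 in the mutant (2.37-fold lower, adjusted p = 0.00191). Without the first parental array the parental value was -0.71, still called (adjusted p = 0.0423). Within an array the ODC1 ratio exceeded the ODC2 ratio by 3.38 to 4.10 in the parental strain and by 3.04 to 3.46 in the mutant. A constant shift of an array cancels in this difference, whereas a change of normalization that differs between probes does not. With 2 arrays in each strain an exact test of such a within-array difference could not reach 0.05, and none was made.

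The levels of the pair ran opposite between the carbon sources and between the strains in glucose, while in glycerol both medians were lower in the mutant. ODC1 had a median of 8.38 in parental glucose (8.33 to 8.43) and 8.71 in mutant glucose (8.57 to 8.83), ranges that did not overlap. Its glycerol medians were 10.81 in the parental strain (10.64 to 10.99) and 10.64 in the mutant (10.51 to 10.76), which overlapped. ODC2 stood at 12.42 in parental glucose (12.36 to 12.71) and 11.97 in mutant glucose (11.95 to 12.12). In glycerol it stood at 11.08 in the parental strain (10.89 to 11.64) and 10.67 in the mutant (10.25 to 11.10).

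CTP1 encodes the citrate carrier, which exports citrate or isocitrate from the matrix. Its ratio was -1.22 and -1.097 on the parental arrays and -0.59 and -0.65 on the mutant arrays. Replicates differed by little and the strains did not overlap. CTP1 fell in the parental strain to -1.16 ± 0.10 (2.23-fold lower, adjusted p = 3.13e-05) and in the mutant to -0.62 ± 0.10 (1.54-fold lower, adjusted p = 0.00145). With spike-in centring the mutant value was -0.45 and missed the threshold (adjusted p = 0.249). The median level of CTP1 was 9.19 in parental glucose (9.05 to 9.29) and 8.68 in mutant glucose (8.66 to 8.71), and these did not overlap. In glycerol the strains met, at 7.995 in parental cells (7.96 to 8.07) and 8.03 in mutant cells (8.01 to 8.09).

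The comparison of mutant with parental cells on the same carbon source asks whether transcript levels differ between the strains. Whether low mevalonate kinase activity underlies a difference was not tested. In glucose 2 of the 10 carriers were called, DIC1 and CTP1, both lower in the mutant, beside 7.04% of all genes called, 3.5% higher and 3.54% lower. The DIC1 ratio was -0.60 and -0.77 on the glucose arrays, with a fitted mean of -0.69 ± 0.16 (1.61-fold lower, n = 2 arrays, adjusted p = 0.0441). CTP1 stood at -0.62 and -0.49, with a mean of -0.56 ± 0.10 (1.47-fold lower, adjusted p = 0.0194). Both genes were lower on both arrays. The threshold was narrow for each of them: DIC1 was called in 7 of 18 alternative settings and CTP1 in 14. Leaving out the first or the second glucose array ended both calls, with adjusted p = 0.184 and 0.480 for DIC1 and adjusted p = 0.176 and 0.234 for CTP1. CTP1 also lost its call with median centring (adjusted p = 0.0935) and with spike-in centring, where it was at -0.68 (adjusted p = 0.340).

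In glycerol 1 of the 10 carriers was called, DIC1, again lower in the mutant, beside 4.12% of all genes called, 3.24% higher and 0.88% lower. Its ratio was -0.93 and -0.73, with a mean of -0.83 ± 0.16 (1.78-fold lower, adjusted p = 0.0309). The call held in 11 of 18 alternative settings, and without the first or the second glycerol array the adjusted p was 0.336 and 0.0930. With spike-in centring the DIC1 value was -0.02 in glycerol and -0.81 in glucose, neither called. The DIC1 ratio of mutant over parental cells, relative to the average gene, was thus below 0 on 4 of 4 strain arrays.

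**Figure D3:**
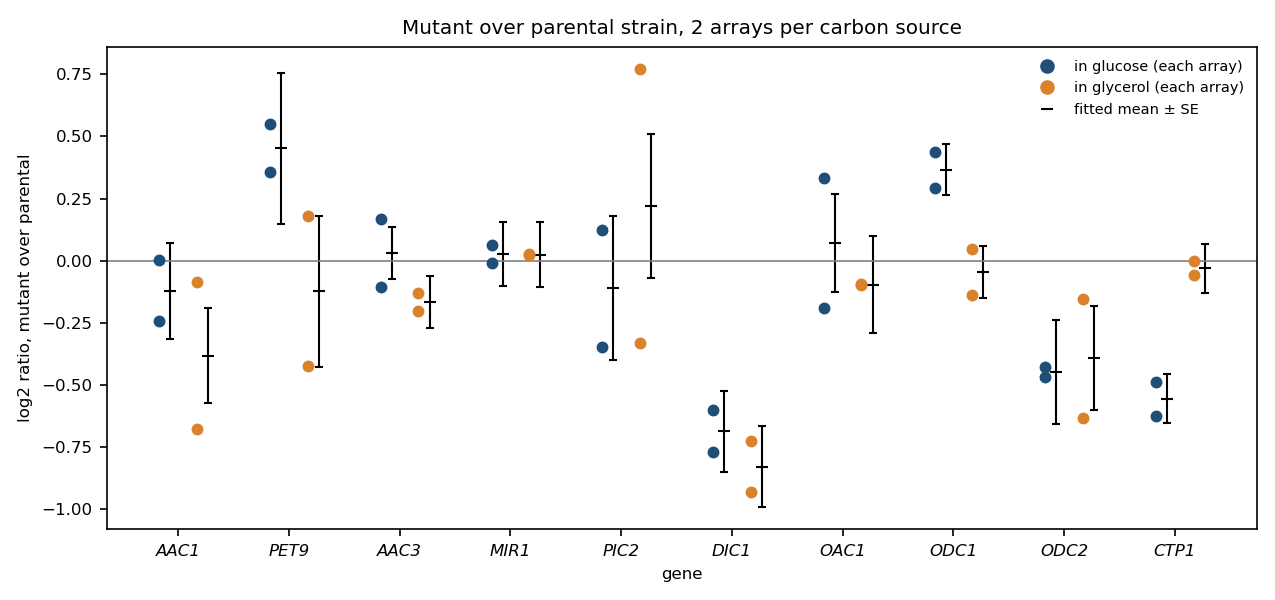
Log2 ratio of mutant over parental strain for the 10 carrier genes. Points are single arrays, 2 in glucose (blue) and 2 in glycerol (orange), and black marks are the fitted mean ± SE. DIC1 lies between -0.60 and -0.93 on all 4 arrays, CTP1 is below 0 in glucose and near 0 in glycerol, and the fitted means of the other 8 genes lie between -0.45 and 0.45.

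Levels read in a single dye gave the same order for DIC1 on both carbon sources and for CTP1 in glucose. In Cy3, DIC1 was at 12.16 and 12.17 in mutant glucose cells and between 12.53 and 13.01 in parental glucose cells. In Cy5, its level was 11.82 to 12.48 in mutant glycerol cells and 12.81 to 13.57 in parental glycerol cells. CTP1 in Cy3 was 8.67 and 8.71 in mutant glucose cells and 9.05 to 9.29 in parental glucose cells. In Cy5, CTP1 was 8.01 to 8.09 in mutant glycerol cells and 7.96 to 7.97 in parental glycerol cells, the opposite order to its ratio of -0.03 there, which was not called. Carriers that were not called were also separate in a single dye. In Cy3, AAC1 was 10.89 to 11.03 in mutant and 11.22 to 11.34 in parental glucose cells. In Cy5, it was 11.71 to 12.26 in mutant and 12.68 to 13.00 in parental glycerol cells. ODC1 and ODC2 were likewise separate on both carbon sources, and AAC3 in glycerol. PET9, MIR1, PIC2 and OAC1 overlapped on both. The single-dye order therefore does not set DIC1 and CTP1 apart. The channels of 1 array are not independent of each other, so these ranges are a description.

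The other carriers did not pass the test between the strains on either carbon source. ODC1 was higher in mutant glucose cells on both arrays, 0.44 and 0.29, and narrowly missed the threshold (0.37 ± 0.10, adjusted p = 0.0735). The loop model, which ties all 4 comparisons together, gave it 0.41 and called it (adjusted p = 0.0127). Over all genes that model called 968 in this comparison, against 376 here. It was the 1 alternative of 18 that called ODC1. Median centring gave 0.37 (adjusted p = 0.290) and spike-in centring 0.25 (adjusted p = 0.892). In glycerol ODC1 was at -0.05 ± 0.10 (adjusted p = 0.843). ODC2 was below 0 on all 4 strain arrays, at -0.47 and -0.43 in glucose and -0.63 and -0.15 in glycerol, with adjusted p = 0.209 and 0.338. PET9 was at 0.36 and 0.55 in glucose (adjusted p = 0.375) and at -0.42 and 0.18 in glycerol (adjusted p = 0.86).

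MIR1 had the smallest ratios between the strains: its arrays lay between -0.01 and 0.06, and its 95% interval was -0.27 to 0.33 in glucose and -0.28 to 0.32 in glycerol. Changes within those bounds were not detectable with 2 arrays. AAC1 was at -0.12 ± 0.19 in glucose (adjusted p = 0.731) and -0.38 ± 0.19 in glycerol (adjusted p = 0.312). OAC1 was at 0.07 ± 0.20 and -0.10 ± 0.20 (adjusted p = 0.857 and 0.827), and AAC3 at 0.03 ± 0.11 and -0.17 ± 0.11 (adjusted p = 0.887 and 0.422). PIC2 stood at -0.11 ± 0.29 in glucose and 0.22 ± 0.29 in glycerol (adjusted p = 0.842 and 0.726), with arrays of opposite sign on each carbon source. In glycerol spike-in centring turned AAC1, PET9, AAC3, OAC1, ODC1, ODC2 and CTP1 above 0. Over the 10 carriers the median ratio was -0.04 in glucose and -0.11 in glycerol, beside 0.0032 and 0.0054 over all genes.

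Whether the glycerol response itself differed between the strains was tested as the mutant response minus the parental response, in which a constant dye bias of a probe cancels. In limma 0 of the 10 carriers were called, beside 1.87% of all genes (0.861% higher and 1.01% lower), and 2 of them, ODC1 and CTP1, had an unadjusted p under 0.05. The ODC1 rise was smaller in the mutant, with a difference of -0.59 ± 0.15 (adjusted p = 0.0744). CTP1 fell less in the mutant, by a difference of 0.54 ± 0.14 (adjusted p = 0.0835). For both genes the parental and mutant arrays did not overlap, but this also held for AAC1 and AAC3. How often it held over all genes was not counted, so it is a description. In the loop model both were called, ODC1 at -0.50 (adjusted p = 0.0105) and CTP1 at 0.53 (adjusted p = 0.00616). Median centring gave CTP1 0.93 (adjusted p = 0.0444) but ODC1 only -0.08 (adjusted p = 0.820). Spike-in centring turned ODC1 to 0.48 (adjusted p = 0.240). Of 18 alternatives, 1 called ODC1 and 3 called CTP1. Over all genes the loop model called 1030 and median centring 258, against 100 here.

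The remaining differences were AAC1 at -0.55 ± 0.27 (adjusted p = 0.284), PET9 at -0.19 ± 0.43 (adjusted p = 0.829), OAC1 at 0.32 ± 0.28 (adjusted p = 0.551) and PIC2 at 0.42 ± 0.41 (adjusted p = 0.602). ODC2, at -0.11 ± 0.30, and AAC3, at -0.15 ± 0.15, had adjusted p = 0.864 and 0.609. MIR1 was at 0.07, with a 95% interval of -0.36 to 0.49. The median over the 10 was -0.13, beside 0.01 over all genes. Spike-in centring moved the median of all genes for this difference to 1.09 and called 7 of the 10 carriers higher, so a statement on the difference holds only relative to the average gene. Ratios of the 4 comparisons should add up to 0 around the loop of conditions. The deviation was 0.48 for OAC1, 0.38 for PET9, -0.31 for DIC1 and -0.29 for AAC1, and within 0.19 of 0 for the other 6. Over all genes its SD was 0.23.

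**Figure D4:**
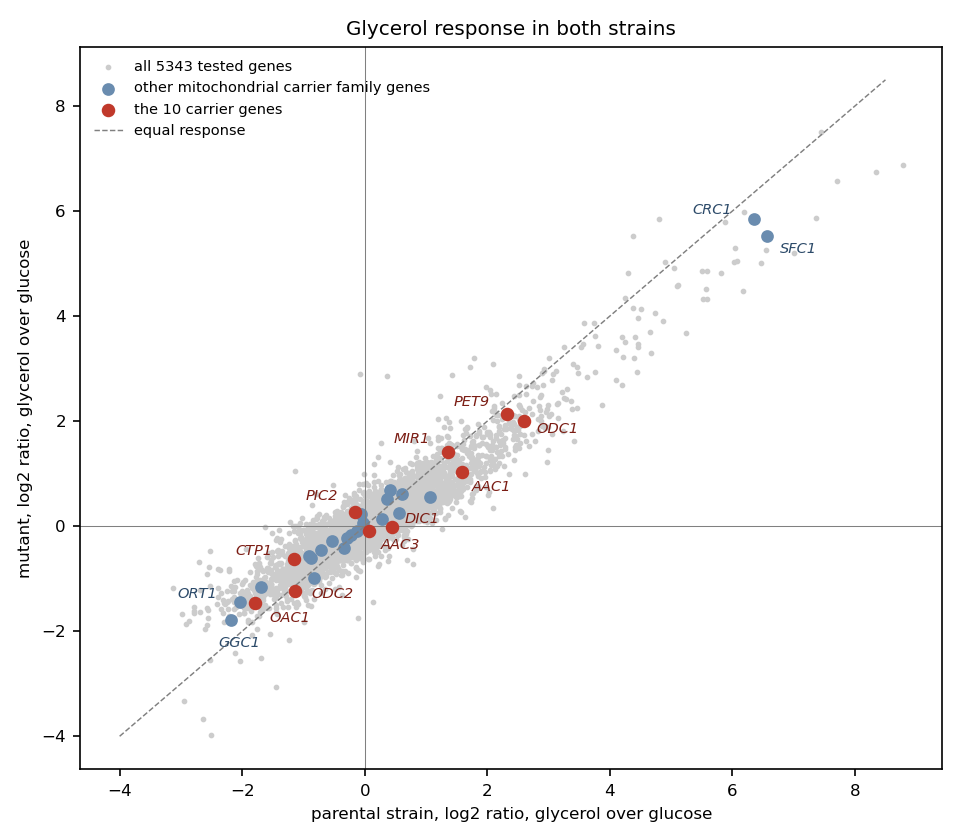
Log2 ratio of glycerol over glucose in the parental strain (x axis) against the mutant (y axis), fitted values, for all 5343 tested genes (grey), the 10 carriers (red) and the 22 other genes of the mitochondrial carrier family (blue). The dashed line marks equal responses. The 10 carriers spread from OAC1 to ODC1 along the cloud of all genes, and SFC1 and CRC1 lie far above them.

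The 22 other genes of the mitochondrial carrier family were likewise split. In the parental strain 6 rose and 10 fell (median -0.18), beside 31.4% and 30.5% of all genes. In the mutant 6 rose and 8 fell (median -0.13), beside 24.7% and 21.9%. SFC1, the succinate and fumarate carrier used in gluconeogenesis, rose by 6.57 ± 0.28 in the parental strain and 5.52 ± 0.28 in the mutant (adjusted p = 1.27e-06 and 4.41e-06). CRC1, the carnitine carrier that brings acetyl units into the matrix, rose by 6.36 ± 0.16 and 5.86 ± 0.16 (adjusted p = 7.20e-08 and 1.98e-07). These rises were more than those of ODC1 and PET9 in both strains. The guanine nucleotide carrier gene GGC1 was at -2.18 ± 0.15 and -1.79 ± 0.15, and the ornithine carrier gene ORT1 at -2.03 ± 0.13 and -1.45 ± 0.13, each called in both strains. Between the strains YMC1 was the 1 gene of this list called, lower in mutant glucose cells (-0.62, adjusted p = 0.0154), beside 3.54% of all genes. It was named after its values were seen. In glycerol and for the difference of responses 0 of 22 were called by limma, beside 4.12% and 1.87% of all genes.

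Genes that work with the carriers were set beside them, after loess only and so relative to the average gene. Over all genes 31.4% rose and 30.5% fell in the parental strain, and 24.7% rose and 21.9% fell in the mutant. Counts of short lists are coarse. In the parental strain those for porin and its companions lie near these shares. For carrier import the rises do, while 0 of 8 genes fell. The ATP synthase uses the ADP and phosphate that PET9 and MIR1 bring in. Of its 13 tested genes 13 rose in the parental strain (median 1.96) and 12 in the mutant (median 1.21). ATP16 rose by 2.60 ± 0.19 and 1.75 ± 0.19, and ATP2 by 2.45 ± 0.11 and 2.103 ± 0.11. PET9, at 2.33 and 2.13, lay within the range of these genes in the parental strain, 1.03 to 2.60, and MIR1, at 1.35 and 1.42, within it in both strains, the mutant range being 0.61 to 2.11. Among 6 genes for porin, adenylate kinases and pyrophosphatases, 2 rose and 1 fell in the parental strain and 2 rose in the mutant. POR1, the main porin of the outer membrane, rose by 2.17 ± 0.18 and 2.12 ± 0.18. Of 8 genes for the import of carriers into the inner membrane 3 rose in the parental strain (median 0.26) and 1 fell in the mutant (median -0.06). TOM70, the receptor for carrier precursors, was at 0.72 ± 0.12 in the parental strain (adjusted p = 0.00123) and 0.32 ± 0.12 in the mutant (adjusted p = 0.064).

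OAC1 is a known target of Leu3, the regulator of branched-chain amino acid synthesis. The list set beside it held LEU3, BAP2 and GDH1 besides genes of that pathway. Of its 10 tested genes 7 fell and 2 rose in the parental strain (median -1.05), beside 30.5% and 31.4% of all genes. In the mutant 5 fell and 1 rose (median -0.45), beside 21.9% and 24.7%. LEU9, an isopropylmalate synthase gene, stood at -2.01 ± 0.20 and -1.23 ± 0.20 and LEU3 itself at -1.22 ± 0.11 and -0.55 ± 0.11, all called. LEU4, the other isopropylmalate synthase gene, was chosen after its values were seen and rose by 0.85 ± 0.21 and 1.15 ± 0.21. LEU2 was above background in 0 of 16 channels, and BY4741 is known to carry a leu2 deletion.

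Lysine synthesis uses the 2-oxoadipate that ODC1 and ODC2 carry. Of its 9 genes 9 fell in the parental strain (median -1.53) and 6 in the mutant (median -1.07), beside 30.5% and 21.9% of all genes. LYS2 was at -2.25 ± 0.16 and -1.44 ± 0.16 and LYS9 at -1.98 ± 0.17 and -1.07 ± 0.17, all called. The direction was that of ODC2 and not that of ODC1. LYS2 and LYS20 were higher in mutant glycerol cells than in parental ones (1.15 and 1.098, adjusted p = 0.00968 and 0.0426). These were 2 of the 9 genes, beside 3.24% of all genes called higher, and both were chosen after their values were seen. ODC1 and ODC2 were not called there. With spike-in centring 4612 of 5343 genes were called higher in that comparison.

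AAC3 is known as a gene repressed by Rox1 in the presence of oxygen. Of 7 other tested genes of that kind 3 rose and 1 fell in the parental strain (median 0.07), and 2 rose and 2 fell in the mutant (median 0.17). Over all genes 31.4% rose and 30.5% fell in the parental strain, and 24.7% rose and 21.9% fell in the mutant. CYC7, a cytochrome c isoform, rose by 3.42 ± 0.41 and 1.61 ± 0.41, whereas HEM13, of haem synthesis, fell to -0.73 ± 0.11 and -0.70 ± 0.11. The list was split, as the carriers were. Of the 5 genes for the Hap activators, which drive respiratory genes, 2 rose and 1 fell in the parental strain and 1 rose in the mutant. For so few genes these counts lie near the shares over all genes. Among them HAP4 rose by 2.77 ± 0.16 and 1.63 ± 0.16. HAP4 was also higher in mutant than in parental glucose cells (0.91, adjusted p = 0.0207). It was the 1 of these 5 genes called there, beside 3.5% of all genes called higher.

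For each carrier the 2 tested genes with the closest set of 4 fitted ratios were found by Euclidean distance. They were ATP2 (0.148) and KGD2 (0.171) for PET9, and YIR016W (0.117) and RFA1 (0.146) for AAC1. For AAC3 they were IMP1 (0.0459) and PUT3 (0.0480), and for PIC2 LCD1 (0.0742) and SRL1 (0.0855). These last pairs lie near 0 in every comparison, where many genes lie close together. MIR1 was nearest to UGP1 (0.121) and YGR201C (0.156), OAC1 to YHK8 (0.136) and NRK1 (0.173), and CTP1 to FLR1 (0.153) and REH1 (0.173). The nearest genes to ODC1 were BCY1 (0.186) and PEX18 (0.217), and those to ODC2 were BAT1 (0.270) and PAN6 (0.301). DIC1 had TVP15 at 0.278 and DLT1 at 0.414, the farthest neighbours of the 10. No carrier was among the nearest genes of another. Distances over 4 ratios that share RNA are a description.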

How the data were processed

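The deposited scanner files give, for every spot and dye, a median intensity and a local background in scanner units. Agilent Feature Extraction 10.10.1.1 made them, per the file headers. Processed intensity values and the log10 ratio of Cy5 over Cy3 stand beside them, background-subtracted and dye-normalized, per the file headers. Flags of 0 or 1 mark spots above background, saturated or outlying, per the file headers. A further table by the authors combines both arrays of a comparison into 1 value per gene, taken here as log2 although the authors' log base is not stated. The submitters' processing notes name limma. Against the scanner ratios its slopes across genes were 0.552 to 0.765 in size, and its parental glycerol column ran the opposite way (r = -0.951) and was turned. The other columns had r = 0.948, 0.843 and 0.851.

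In R 4.3.3 with limma 3.58.1, median signals were corrected by normexp (offset 50) and normalized by loess within arrays, control and outlier spots having weight 0. Both spots of a gene were averaged. Genes were tested if above background on both spots of all channels of 1 condition or more: 5343 of 6256. Across these genes, which are not independent, replicate arrays correlated at 0.953 and 0.898 (glycerol responses, parental and mutant) and at 0.716 and 0.511 (strains, in glucose and glycerol). lmFit and eBayes took all 8 arrays, with 1 coefficient per comparison, 4 residual degrees of freedom and Benjamini-Hochberg adjustment over all tested genes. SEs are from this fit. The number of arrays limits the precision. The fit was tested on simulated data.

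The groups came from the labels. The named genes are all 10 carriers, up to 4 examples of each list with the largest called glycerol responses, and the 2 nearest genes of each carrier. Others are marked as chosen after their values were seen. The members, the lists and the tests were chosen with earlier results of these data known, so list counts are descriptions. Alternatives were other background corrections, centrings, filters, single spots, slide row as a block, a loop model and each array left out. Spike-in centring used 10 probes, each set against its own mean over the arrays, since their nominal ratios are not given in the sources used here. The array annotation and RefSeq gave the gene names, with 5756 of 6256 matched. Sequences and shared signal of probes of related carriers were not analysed here.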

Additional observations from a re-analysis of the deposited data

Results flagged for a closer look

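The level of DIC1 in parental glycerol cells had 1 channel far from the other 3. The lowest channel stood at 12.78 and the highest at 13.57 (log2 scanner units), and the gap of the highest to its neighbour was 0.847 of this range, above Dixon's critical value of 0.829 for 4 values. The high channel was Cy5 on a parental glycerol over glucose array, and the 4 channels come from 2 arrays in each of 2 comparisons. In all 40 groups of 4 channels were examined, of which chance flags about 1 in 20.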

How the results depend on the processing

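Over 18 alternatives, the called glycerol responses of PET9, OAC1, ODC1 and ODC2 in both strains, of AAC1 and CTP1 in the parental strain and of MIR1 in the mutant kept their call and direction. With all genes counted, Agilent's processed signals gave 38 differences of response. Median centring gave 111 calls between the strains in glucose, 120 in glycerol and 258 differences. Spike-in centring gave 1367 mutant glycerol calls, 80 between the strains in glucose, 4614 in glycerol and 4130 differences. The loop model gave 968, 732 and 1030 for the last 3. Among the 10 carriers, the strains in glucose had 1 call with Agilent's signals, with an offset of 10 or without a filter and 0 with median or spike-in centring. Spike-in centring called 7 in glycerol and 7 for the difference, where median centring called 1 and the loop model 2. Slide row as a replicate block changed the call of no carrier and left 43 differences over all genes. In none of these was the cause tested. Signs turned for AAC3 in the mutant with Agilent's signals (0.32), and for DIC1 in the mutant with an offset of 10 (0.077), the first spot (0.034) and the loop model (0.062). Median centring turned DIC1 in the parental strain (-0.13), ODC1 and CTP1 in glycerol (0.036 and 0.039), and the differences of AAC1 (0.0098), PET9 (0.28), DIC1 (0.11) and ODC2 (0.45). Spike-in centring turned AAC3 and DIC1 in the parental strain (-0.85 and -0.47) and in the mutant (0.083 and 0.15), and AAC3, MIR1 and OAC1 between the strains in glucose (-0.088, -0.092 and -0.050). In glycerol it turned AAC1 (0.43), PET9 (0.69), AAC3 (0.64), OAC1 (0.72), ODC1 (0.77), ODC2 (0.42) and CTP1 (0.78), and as differences AAC1 (0.53), PET9 (0.89), AAC3 (0.93), DIC1 (0.62), ODC1 (0.48) and ODC2 (0.97). The first spot turned AAC3 and MIR1 in glucose (-0.0013 and -0.0023), and the loop model OAC1 in glucose and glycerol (-0.051 and 0.024). Leaving out 1 array gave 2246 to 3281 parental and 1453 to 2497 mutant glycerol calls over all genes, 5 to 368 between the strains in glucose, 18 to 281 in glycerol and 0 to 223 differences. For the carriers it gave 7 to 8, 6 to 7, 0 to 2, 0 to 1 and 0 to 0. Ranges that crossed 0 were, for the difference, PET9 (-0.94 to 0.56), MIR1 (-0.18 to 0.31), OAC1 (-0.058 to 0.69) and ODC2 (-0.53 to 0.32). They were, for glycerol over glucose, PIC2 in the parental strain (-0.45 to 0.15) and the mutant (-0.14 to 0.68) and DIC1 in the mutant (-0.34 to 0.31). Between the strains in glucose they were AAC1 (-0.25 to 0.0024), AAC3 (-0.11 to 0.17), MIR1 (-0.0087 to 0.063), PIC2 (-0.35 to 0.12) and OAC1 (-0.19 to 0.33), and in glycerol PET9 (-0.42 to 0.18), PIC2 (-0.33 to 0.77) and ODC1 (-0.14 to 0.045). A lone array is assumed to vary like the others. AAC3, dim throughout, is the carrier limited most by signal over background. Set against the fit, 14 carrier values of the authors' deposited table moved by more than the SD between arrays.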
